A study of Mus musculus with 24 samples.

Results

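The 6 genes described here encode the receptors and signalling proteins that carry ITAM co-stimulation in osteoclasts: the receptors OSCAR (Oscar) and TREM2 (Trem2), the adaptors FcRγ (Fcer1g) and DAP12 (Tyrobp), the kinase SYK (Syk) and the phospholipase PLCγ2 (Plcg2). They were chosen by name, and all 6 were found among the 10721 genes of the deposited expression table. RNA was sequenced from bone marrow osteoclast precursors of STING-deficient mice (KO mice 481, 528 and 532) and wild-type mice (WT mice 480, 529 and 531), 3 per genotype. STING is the adaptor that links cytosolic DNA sensing to type I interferon, and the study compared how precursors with and without it respond to RANKL. Each mouse gave 1 sample at day 0, before RANKL, and 1 each after 2, 3 and 4 days of RANKL, so there were 24 samples in 8 groups of 3.

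Per the labels, marrow came from female mice of 10 to 12 weeks, was expanded for 72 hours in mCSF at 40 ng/mL, and was then plated at 25000 cells per well in RANKL at 10 ng/mL with mCSF at 20 ng/mL. Day 0 cells were the same expanded cells without RANKL, and RNA of later days was pooled from replicate wells of a mouse. How the STING gene was mutated is not stated in the labels, and mice of both genotypes received the same culture. RANKL, the lower mCSF dose, replating and time in culture changed together after day 0 and cannot be told apart in these samples. Values are FPKM, fragments per kilobase of transcript scaled to the size of the library, computed by the authors. They are per transcript length, so levels of different genes are set side by side below. Whether scaling by length alone makes them comparable between genes was not tested. The depth of the samples is unknown, so the values carry no counting intervals.

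An ITAM is a short tyrosine motif in the cytoplasmic tail of an adaptor. OSCAR, a receptor for collagen, pairs with FcRγ, and TREM2 pairs with DAP12. Neither receptor signals alone: Src-family kinases phosphorylate the adaptor's ITAM, SYK docks on it, and PLCγ2 downstream of SYK releases calcium, which through calcineurin activates NFATc1, the main transcription factor of osteoclast differentiation. Mice that lack both adaptors have dense, osteopetrotic bone, and Oscar is itself a known target gene of NFATc1.

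The promoters of Oscar, Fcer1g and Trem2 are shown because these 3 genes changed most over the course once the isolated 0 of Syk, described below, is set aside. Each window runs from 250 bases before to 50 bases after the start of transcription, read 5′ to 3′ on the gene's strand, from RefSeq on GRCm38.p6. Capitals mark matches, on either strand, to GGAAA (the core read by NFAT), GAGGAA (read by PU.1) and CACGTG or CATGTG (an E-box read by MITF and USF). The Oscar window is chr7:3616108-3616407, minus strand, the Fcer1g window chr1:171234300-171234599, minus strand, and the Trem2 window chr17:48346151-48346450, plus strand.
Oscar: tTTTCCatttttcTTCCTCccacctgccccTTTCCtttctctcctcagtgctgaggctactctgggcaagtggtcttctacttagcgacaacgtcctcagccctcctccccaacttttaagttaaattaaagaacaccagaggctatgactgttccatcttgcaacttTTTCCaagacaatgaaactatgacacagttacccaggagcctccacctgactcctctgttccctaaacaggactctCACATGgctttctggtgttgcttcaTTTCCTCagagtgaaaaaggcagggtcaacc
Fcer1g: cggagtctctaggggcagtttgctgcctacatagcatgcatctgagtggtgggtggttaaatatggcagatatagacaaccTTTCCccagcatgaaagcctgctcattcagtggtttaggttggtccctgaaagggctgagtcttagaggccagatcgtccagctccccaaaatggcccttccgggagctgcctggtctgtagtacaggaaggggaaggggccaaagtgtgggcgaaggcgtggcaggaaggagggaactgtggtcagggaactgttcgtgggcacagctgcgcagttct
Trem2: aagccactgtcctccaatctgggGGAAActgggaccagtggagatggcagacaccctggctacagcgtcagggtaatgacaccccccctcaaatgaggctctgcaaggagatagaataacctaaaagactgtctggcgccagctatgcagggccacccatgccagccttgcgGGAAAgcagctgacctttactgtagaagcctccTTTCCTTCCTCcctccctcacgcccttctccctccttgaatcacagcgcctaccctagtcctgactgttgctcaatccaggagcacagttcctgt
The Oscar window held the NFAT core with its first base at positions -249, -220, -82 and 20 from the start, counted along the gene. It held the PU.1 motif at -237 and 21, the second of which overlaps the NFAT match at 20, and the E-box at -6. In the Fcer1g window there was 1 NFAT core, at -169. The Trem2 window held the NFAT core at -227, -78 and -45 and the PU.1 motif at -40, directly after the last NFAT match. The AP-1 motif (TGAGTCA or TGACTCA) was in none of the 3. Such matches are common: of 32851 promoter windows of this length, 61.3% held GGAAA, 28.3% held GAGGAA, 20.4% held the E-box and 5.2% held the AP-1 motif. A match describes the letters only. Of the other members, Plcg2 had NFAT cores at -186 and -123 and an E-box at -20, and Syk had 2 windows, 1 with no match and 1 with NFAT cores at -7 and 35 and the PU.1 motif at -9. Tyrobp had no window among those used.

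Before the results, the samples were checked against their labels. STING itself (listed as Tmem173) had 5.08, 4.57 and 4.89 FPKM in KO mice 481, 528 and 532 at day 0, against 28.7, 25.4 and 21.3 FPKM in WT mice 480, 529 and 531. It stayed lower in KO on each later day without overlap, at 2.65 to 3.79 FPKM in KO and 3.38 to 7.35 FPKM in WT samples over days 2 to 4. The summed level of 8 osteoclast markers such as Ctsk and Acp5 was 60.0 to 165 FPKM in KO and 92.9 to 143 FPKM in WT at day 0, and 44992 to 49498 FPKM in KO and 41054 to 47776 FPKM in WT at day 4. Markers of other cells were present at day 0. The 8 neutrophil markers found in the table (of 10) summed to 12543, 8570 and 7105 FPKM in KO mice 481, 528 and 532 and to 15499.9, 5644 and 8761 FPKM in WT mice 480, 529 and 531. On RANKL days they summed to 61.5 to 209 FPKM over both genotypes. The 7 B cell markers found (of 10) summed to 49.6 to 126 FPKM in KO and 26.1 to 97.0 FPKM in WT at day 0, and to at most 0.904 FPKM later. The 6 platelet and erythroid markers found (of 8) summed to 565 to 1321 FPKM in KO and 473 to 1604 FPKM in WT at day 0 and to 10.7 to 40.9 FPKM on RANKL days, and the 5 mast cell and basophil markers found (of 9) to 9.25 to 20.7 FPKM in KO and 5.71 to 22.1 FPKM in WT at day 0 and to at most 1.09 FPKM later. The 7 macrophage and precursor markers found (of 8) summed to between 1775 and 4067 FPKM in all samples, with Cd68 the largest part. Single markers of this list moved. Cd14, Emr1, Itgam and Mertk were lower at day 2 than at day 0 without overlap in both genotypes. Cd14 went from 396 to 495 FPKM to 38.7 to 42.4 FPKM in KO, and from 245 to 440 FPKM to 25.4 to 37.7 FPKM in WT. Tnfrsf11a rose, from 10.6 to 12.7 FPKM to 34.5 to 38.7 FPKM in KO and from 9.91 to 11.5 FPKM to 32.3 to 38.4 FPKM in WT. Neutrophils are known to express Fcer1g and Tyrobp, so a loss of these cells runs alongside every change from day 0 described below; its part in the results was not tested. In bulk RNA, fewer cells of a type and less RNA per cell cannot be told apart.

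**Figure D1:**
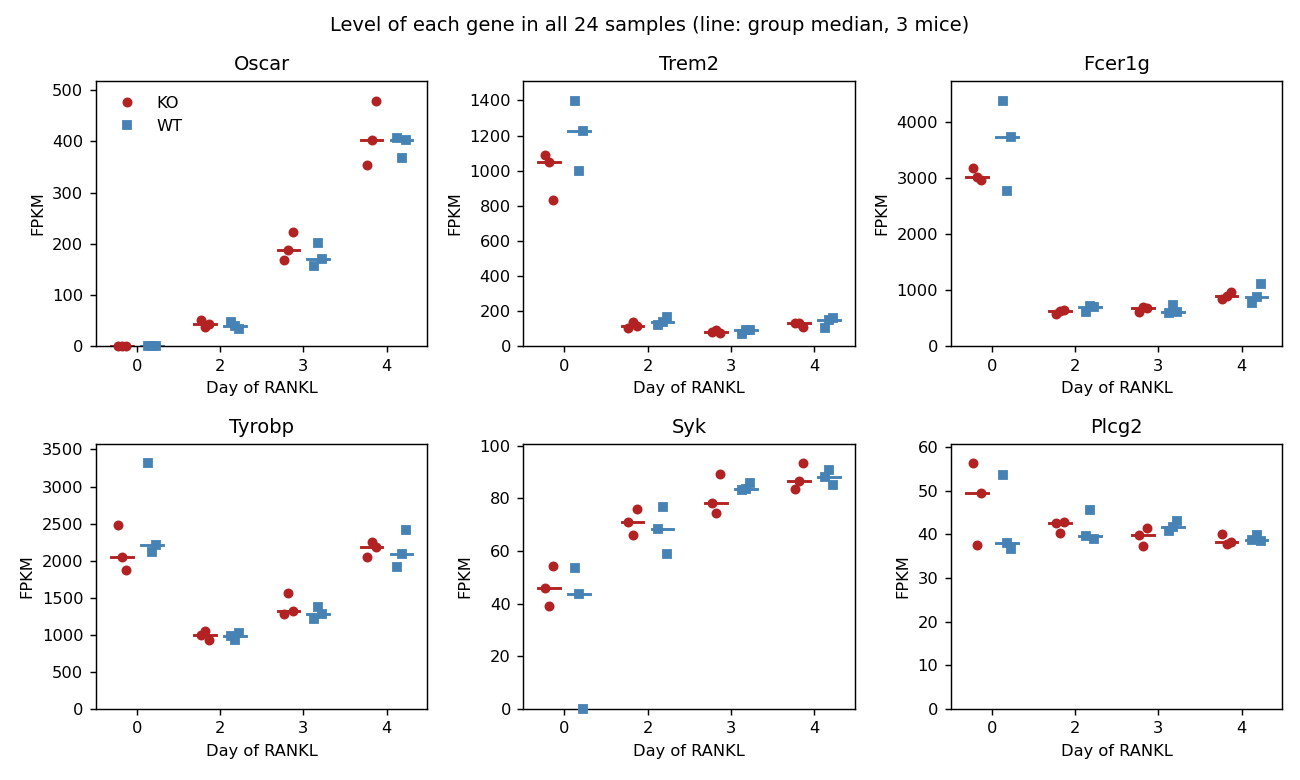
FPKM of the 6 genes (vertical axes, linear, starting at 0) against day of RANKL; each point is 1 mouse, KO circles left of WT squares, and the line is the group median. Oscar climbs to 354 to 479 FPKM in KO and 368 to 407 FPKM in WT at day 4, Trem2 and Fcer1g are highest at day 0, Tyrobp is lowest at day 2, and the Syk value at 0 belongs to WT mouse 531 at day 0.

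Oscar, on chromosome 7 (GRCm38, 3609813 to 3616157, minus strand), was near 0 before RANKL and rose on each later day in both genotypes. At day 0 it had 0.616, 0.0793 and 0.0767 FPKM in KO mice 481, 528 and 532; in WT it was listed at 0 in mouse 480 and had 0.209 and 0.362 FPKM in mice 529 and 531. By day 2 it had 51.9, 36.7 and 42.7 FPKM in KO, against 46.1, 38.7 and 33.2 FPKM in WT, with mice in the same order. At day 3 the values were 168, 189 and 224 FPKM in KO and 157, 202 and 170.4 FPKM in WT. The 4 days did not overlap in either genotype, and Oscar was lowest at day 0 and highest at day 4 in 6 of 6 mice. At day 4 it reached 354, 402.5 and 479 FPKM in KO (412 ± 63.4, SD, n = 3) and 407, 368 and 402 FPKM in WT (392 ± 21.0). On the log2(FPKM + 1) scale, day 4 exceeded day 0 by 8.38 in KO (SE 0.171, adjusted p = 1.82e-19, limma with Benjamini-Hochberg adjustment over all genes tested) and by 8.38 in WT (adjusted p = 1.89e-19). This scale understates changes of genes with low values. In both genotypes that was the 5th largest rise among 10081 tested genes, and by its mean level Oscar was at rank 196 in KO and 203 in WT at day 4, against rank 10189 in KO and 10275 in WT at day 0. Each step was also past the threshold of 0.05. Day 3 exceeded day 2 by 2.12 in KO (adjusted p = 2.77e-08) and by 2.14 in WT (adjusted p = 2.45e-08). Day 4 exceeded day 3 by 1.09 in KO (adjusted p = 0.000317) and by 1.15 in WT (adjusted p = 0.000138), a call lost in both with a pseudocount of 0.1 (adjusted p = 0.0933 in KO and 0.0666 in WT).

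Trem2, on chromosome 17 (48346401 to 48354147, plus strand), was high before RANKL and fell against day 0 on each later day. At day 0 it had 1086, 1048 and 830.2 FPKM in KO (988 ± 138, n = 3) and 1399, 996 and 1223 FPKM in WT (1206 ± 202). At day 2 it was down to 104, 138 and 115 FPKM in KO and 120.2, 135 and 165 FPKM in WT. Its lowest day was day 3 in 6 of 6 mice, at 79.7, 94.5 and 74.1 FPKM in KO (82.7 ± 10.5) and 69.4, 94.3 and 89.4 FPKM in WT (84.4 ± 13.2). Day 0 did not overlap any RANKL day. At day 4 Trem2 had 129.7, 133 and 111 FPKM in KO and 103, 146 and 162 FPKM in WT, above day 3 in 6 of 6 mice. Against day 0 it fell by 3.04, 3.56 and 2.97 on the log2 scale at days 2, 3 and 4 in KO (SE 0.175, adjusted p = 2.57e-12, 1.53e-13 and 2.93e-12). In WT it fell by 3.09, 3.82 and 3.14 on the same days (adjusted p = 1.85e-12, 4.96e-14 and 1.22e-12). The later steps were smaller: day 3 minus day 2 was -0.52 in KO (adjusted p = 0.0291) and -0.73 in WT (adjusted p = 0.00298), and day 4 minus day 3 was 0.59 in KO (adjusted p = 0.0240) and 0.68 in WT (adjusted p = 0.00887). Both KO steps lost their call without any 1 of the 3 KO mice: day 3 minus day 2 had adjusted p = 0.0738, 0.131 and 0.174 without KO mice 481, 528 and 532, and day 4 minus day 3 had 0.174, 0.105 and 0.107. In WT the call for the step to day 4 did not hold without mouse 529 (adjusted p = 0.0513) or mouse 531 (adjusted p = 0.0680).

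The adaptor of OSCAR, Fcer1g (chromosome 1, 171229572 to 171234365, minus strand), was one of the most abundant transcripts of the precursors, at rank 16 of 10721 genes in both genotypes at day 0. It had 3175, 3027 and 2959 FPKM in KO (3054 ± 111) and 4382, 2772 and 3741 FPKM in WT (3632 ± 811). At day 2 it had 564, 622 and 649 FPKM in KO and 609, 716 and 695 FPKM in WT, and at day 3 it had 601, 694 and 687 FPKM in KO and 591, 725 and 605 FPKM in WT. Fcer1g thus stayed among the 131 highest genes at day 3 in each sample. At day 4 it had 837, 888 and 967 FPKM in KO (897 ± 65.1) and 774, 874 and 1100.2 FPKM in WT (916 ± 167). Relative to day 0, Fcer1g fell by 2.32, 2.21 and 1.77 on the log2 scale at days 2, 3 and 4 in KO (SE 0.143, adjusted p = 8.35e-12, 1.39e-11 and 5.01e-10). In WT it fell by 2.41, 2.48 and 1.98 (adjusted p = 4.49e-12, 2.11e-12 and 8.78e-11). Day 3 and day 2 were not separated (0.11 in KO, adjusted p = 0.617, and -0.08 in WT, adjusted p = 0.725). Day 4 was above day 3 in 6 of 6 mice, by 0.44 in KO (adjusted p = 0.0378) and 0.51 in WT (adjusted p = 0.0159). That step lost its call in KO without mouse 481, 528 or 532 (adjusted p = 0.191, 0.164 and 0.193) and with median scaling (adjusted p = 0.0510), and in WT without mouse 531, where it was 0.33 (adjusted p = 0.211).

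The adaptor of TREM2, Tyrobp (chromosome 7, 30413760 to 30417585, plus strand), dipped and came back. At day 0 it had 2478, 2044 and 1869 FPKM in KO (2130.3 ± 314) and 3313, 2114 and 2204 FPKM in WT (2544 ± 667). Day 2 was the lowest day in 6 of 6 mice, at 992, 1050.1 and 925 FPKM in KO and 977, 927 and 1025 FPKM in WT. Day 3 gave 1283, 1568 and 1325 FPKM in KO and 1211, 1377 and 1281 FPKM in WT. By day 4 Tyrobp had 2049, 2247 and 2189 FPKM in KO (2161 ± 102) and 1909.7, 2094 and 2407 FPKM in WT (2137 ± 252), which overlaps day 0 in both genotypes, and its group mean ranked 15th in KO and 16th in WT among all genes. It fell at day 2 by 1.10 on the log2 scale in KO (SE 0.143, adjusted p = 6.76e-07) and by 1.35 in WT (adjusted p = 3.28e-08), and at day 3 it was still lower than day 0, by a difference of -0.61 in KO (adjusted p = 0.00061) and -0.95 in WT (adjusted p = 3.74e-06). At day 4 the difference from day 0 was 0.03 in KO (adjusted p = 0.848) and -0.23 in WT (adjusted p = 0.143). Without WT mouse 531 the WT difference was -0.40 and passed (adjusted p = 0.0439). Day 4 was above day 0 in 3 of 6 mice.

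The climb of Tyrobp over the RANKL days was seen in each mouse, with day 3 above day 2 and day 4 above day 3 in 6 of 6. Day 3 exceeded day 2 by 0.49 in KO (adjusted p = 0.0128) and 0.40 in WT (adjusted p = 0.0347), and day 4 exceeded day 3 by 0.64 in KO (adjusted p = 0.00466) and 0.72 in WT (adjusted p = 0.00154). Single mice decided several of these calls. The KO step to day 3 was lost without KO mouse 528 (adjusted p = 0.120) or 532 (adjusted p = 0.0959), and the WT step without KO mouse 528 (adjusted p = 0.0540), WT mouse 529 (adjusted p = 0.205) or WT mouse 531 (adjusted p = 0.0905). The KO step to day 4 was lost without KO mouse 481 (adjusted p = 0.0540) or 532 (adjusted p = 0.0622).

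Syk, the kinase that docks on the phosphorylated ITAM (chromosome 13, 52583173 to 52648792, plus strand), was 1 of 6 genes in the table with a single listed 0 while the other 23 samples held at least 10 FPKM. At day 0 it had 45.8, 39.3 and 54.5 FPKM in KO; in WT it had 53.4 and 43.7 FPKM in mice 480 and 529 and was listed at 0 in mouse 531. At day 2 it had 71.1, 65.9 and 76.1 FPKM in KO and 68.6, 76.9 and 58.9 FPKM in WT. At days 3 and 4 the levels were 78.2, 74.6 and 89.2, then 83.8, 86.8 and 93.4 FPKM in KO, and 83.4, 83.5 and 85.8, then 88.0, 90.7 and 85.1 FPKM in WT. Every RANKL day stood above every day 0 value in both genotypes. With the value of 0 taken as listed, the spread of the gene was wide (SE 0.841 on the log2 scale). Day 4 minus day 0 was then 0.92 in KO, not past the threshold (adjusted p = 0.314), and 2.73 in WT (adjusted p = 0.00528). Days 2 and 3 gave 0.61 and 0.79 in KO (adjusted p = 0.508 and 0.385), against 2.35 and 2.66 in WT (adjusted p = 0.0146 and 0.00625).

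The fit was repeated with the isolated 0 as a missing value, an alternative chosen after the data were seen. Syk then rose by 0.61, 0.79 and 0.92 at days 2, 3 and 4 in KO (SE 0.112, adjusted p = 5.81e-05, 2.37e-06 and 3.21e-07). In WT, with 2 mice at day 0, it rose by 0.48, 0.79 and 0.85 (SE 0.125, adjusted p = 0.00166, 8.67e-06 and 3.42e-06). Both genotypes thus showed rises of similar size once 1 value was set aside. The 3 WT calls made with the value as listed were also lost when the 2 groups compared were fitted alone (adjusted p = 0.127, 0.108 and 0.0831). Without WT mouse 531 altogether, the WT differences at days 2, 3 and 4 were 0.58, 0.78 and 0.87.

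Plcg2 (chromosome 8, 117498291 to 117635142, plus strand), the phospholipase downstream of SYK, had the flattest course of the 6. It had 56.3, 37.5 and 49.5 FPKM in KO at day 0 (47.8 ± 9.50) and 53.6, 38.0 and 36.7 FPKM in WT (42.8 ± 9.43). At day 2 it had 42.6, 40.3 and 42.8 FPKM in KO and 39.6, 45.7 and 38.9 FPKM in WT, and at day 3 it had 39.9, 37.2 and 41.4 FPKM in KO and 40.7, 41.6 and 43.0 FPKM in WT. At day 4 it had 40.1, 37.8 and 38.3 FPKM in KO and 38.7, 39.9 and 38.5 FPKM in WT. The day 0 samples spread more widely than all later ones. The 2 highest day 0 values were those of KO mouse 481 and WT mouse 480. These mice had the highest summed B cell markers of their genotype, 126 and 97.0 FPKM. They were also highest of their genotype for the neutrophil and the mast cell and basophil markers. KO mice 528 and 532 had B cell sums of 51.3 and 49.6 FPKM, with Plcg2 at 37.5 and 49.5 FPKM. B cells are known to express Plcg2, and the part of any of these cells in the values was not tested. In KO, day 2, 3 and 4 minus day 0 were -0.17, -0.25 and -0.28 on the log2 scale (SE 0.124, adjusted p = 0.221, 0.0702 and 0.0453), and in WT they were -0.03, -0.01 and -0.11 (adjusted p = 0.834, 0.927 and 0.419). The KO call at day 4 was lost without KO mouse 481 (-0.18, adjusted p = 0.294), KO mouse 532 (-0.23, adjusted p = 0.207), WT mouse 529 (adjusted p = 0.0574) or WT mouse 531 (adjusted p = 0.0542), and when the 2 groups were fitted alone (adjusted p = 0.110). At day 3 it passed without KO mouse 528 (-0.37, adjusted p = 0.0221), without WT mouse 480 (adjusted p = 0.0400) and with median scaling (adjusted p = 0.0453).

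**Figure D2:**
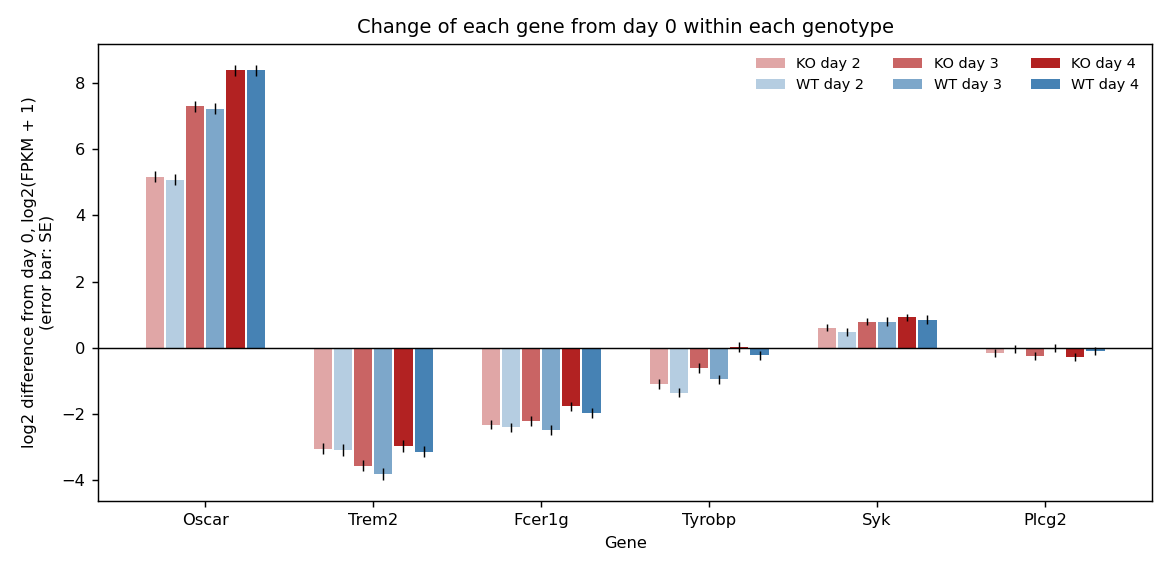
Log2 difference from day 0 (vertical axis, log2(FPKM + 1) scale) of each gene at days 2, 3 and 4; bars are KO left of WT with standard errors, and Syk is from the fit with its isolated 0 as missing. Oscar stands at 8.38 in both genotypes at day 4 and Trem2 at -2.97 in KO and -3.14 in WT, while Plcg2 stays between -0.28 and -0.01.

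Counted over the planned fit, 4 of the 6 genes were past the threshold in KO and 5 in WT at day 2 against day 0, where 79.5% of all tested genes passed in KO and 81.3% in WT. At day 3 the counts were 4 in KO (82.8% of all genes) and 5 in WT (85.3%), and at day 4 they were 4 in KO (83.8%) and 4 in WT (85.4%). With so many of the tested genes changing against day 0, these counts do not set the 6 genes apart. The shares are over the deposited genes, whose selection rule is not stated, so they may not hold for all expressed genes. For day 3 minus day 2, 3 of the 6 passed in KO (30.8% of all genes) and 3 in WT (35.5%), and for day 4 minus day 3 it was 4 in KO (17.9%) and 4 in WT (21.8%). Those 4 were Oscar, Fcer1g, Tyrobp and Trem2 in both genotypes, and all were higher at day 4. The counts for both steps rest on few mice. In KO the step to day 4 kept 1, 2 and 1 of the 6 without mice 481, 528 and 532, and the step to day 3 kept 2, 1 and 1. In WT the step to day 4 kept 2 without mouse 531. The count over all genes fell as well, to between 480 and 664 genes for the KO step to day 4 without any 1 KO mouse, against 1809 with all mice.

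Because FPKM are per length, the members of a pair can be set against each other within a sample. The ratio of Tyrobp to Fcer1g moved in 1 direction over the course. It was 0.696 ± 0.0765, 1.62 ± 0.176, 2.11 ± 0.166 and 2.41 ± 0.136 (SD, n = 3) at days 0, 2, 3 and 4 in KO, and 0.703 ± 0.0983, 1.46 ± 0.155, 2.02 ± 0.112 and 2.35 ± 0.145 in WT. So by FPKM Fcer1g was the higher adaptor transcript before RANKL and Tyrobp the higher on each RANKL day. Tyrobp made up 40.9% of the summed FPKM of the adaptor pair in KO and 41.1% in WT at day 0, and 70.7% in KO and 70.1% in WT at day 4.

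Each receptor was also set against its own adaptor. Oscar to Fcer1g was 0.0722, 0.292 and 0.457 at days 2, 3 and 4 in KO, and 0.0591, 0.275 and 0.437 in WT. Trem2 to Tyrobp went the other way, with 0.465, 0.120, 0.0594 and 0.0578 at days 0, 2, 3 and 4 in KO and 0.483, 0.143, 0.0652 and 0.0638 in WT. By FPKM both adaptors stayed above their receptor on each day. Plcg2 to Syk was 1.03, 0.591, 0.491 and 0.441 at days 0, 2, 3 and 4 in KO and 0.937 (2 mice), 0.611, 0.496 and 0.444 in WT. None of the 16 tests of KO against WT ratios separated the genotypes (4 ratios on 4 days, exact permutation test over mice, two-sided, unadjusted p from 0.3 to 1, adjusted p from 0.914 to 1). With 3 against 3 mice that test cannot give a p under 0.1. It ran on log2 ratios, so 1 WT mouse was left out of 2 of the day 0 tests: mouse 480 for Oscar to Fcer1g, whose ratio is 0 through its listed 0 of Oscar, and mouse 531 for Plcg2 to Syk, whose ratio is undefined through its listed 0 of Syk.

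**Figure D3:**
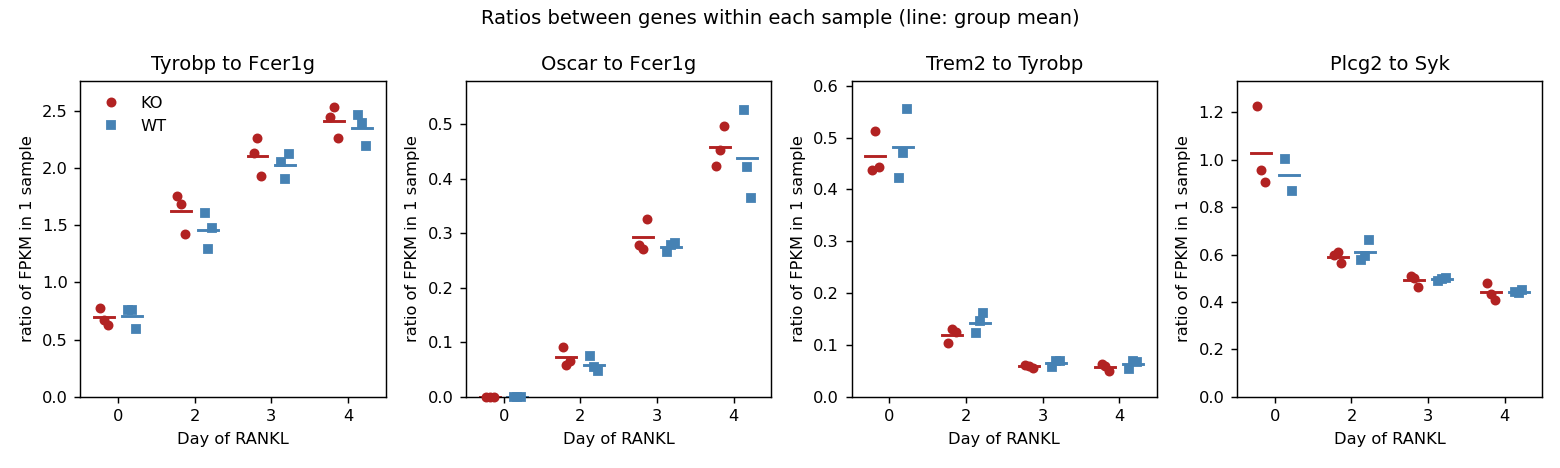
FPKM ratios within each sample (vertical axes, linear, starting at 0) by day of RANKL; points are mice, KO circles left of WT squares, and lines are group means. Tyrobp to Fcer1g and Oscar to Fcer1g climb with each day while Trem2 to Tyrobp and Plcg2 to Syk decline, and the KO and WT points overlap in each panel; WT mouse 531 has no Plcg2 to Syk point at day 0.

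OSCAR and TREM2 share their adaptors with many other myeloid receptors. The comparison took 23 receptors: Oscar, Trem2 and listed others that signal through FcRγ or DAP12 or carry a motif of their own. Listed receptors missing from the deposited genes could not be included. Plxna1, with group means from 24.6 to 37.4 FPKM, was left out here but is among the further receptors of the next paragraph. Shares and places are of these 23 only. At day 0 Trem2 was the most abundant of the 23, with 39.2% of their summed FPKM in KO and 41.9% in WT. Next came Clec4d, which signals through FcRγ, at 678 ± 90.4 FPKM in KO and 772 ± 125 FPKM in WT, and Fcgr3, a low-affinity IgG receptor, at 463 ± 95.1 FPKM in KO and 444 ± 92.4 FPKM in WT. Oscar held 0.0097% in KO and 0.0072% in WT. At day 2 Oscar was in place 4 in both genotypes, behind Clec4d, Trem2 and Nfam1 (a receptor with its own ITAM). From day 3 it was the most abundant of the 23, with 29.2% in KO and 26.7% in WT at day 3 and 37.2% ± 3.48 in KO and 34.5% ± 4.61 in WT at day 4. Trem2 was in place 4 in KO and 3 in WT at day 4, with 11.4% in KO and 11.9% in WT; in that order Trem2 and Nfam1 differed by less than the spread between mice. The total for the 23 receptors was 2518, 546, 661 and 1104 FPKM at days 0, 2, 3 and 4 in KO and 2876, 595, 662 and 1147 FPKM in WT, so a larger Oscar share came with a total below that of day 0.

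**Figure D4:**
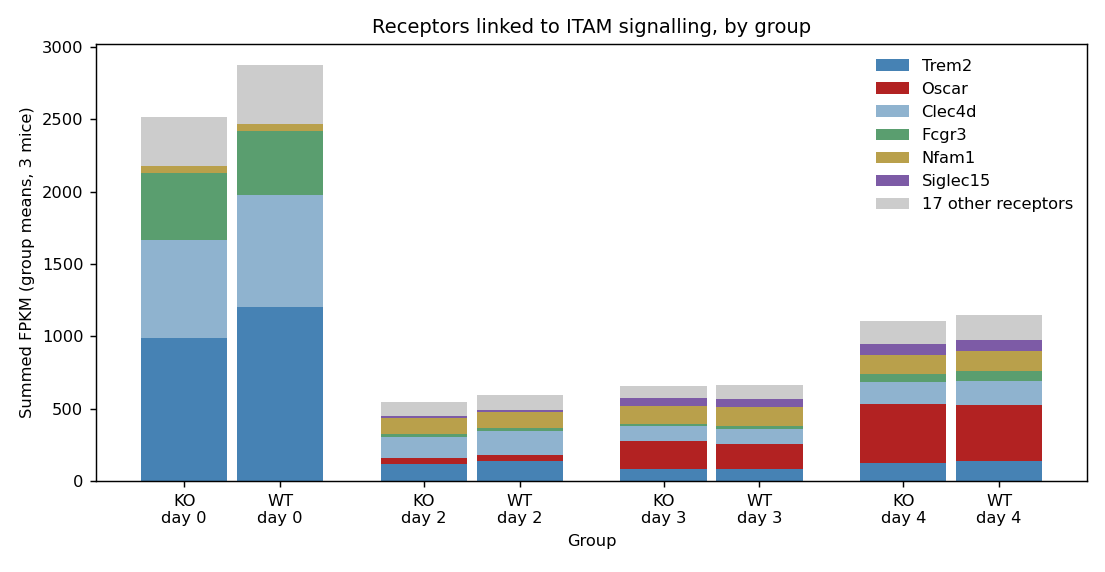
Stacked group means of FPKM (vertical axis, linear, starting at 0) for 23 receptors of the ITAM pathway in each group of 3 mice, KO left of WT on each day. Trem2, Clec4d and Fcgr3 make up most of the day 0 columns, and Oscar is the largest single segment at days 3 and 4.

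Of 30 further receptors listed for this pathway, 22 were in the table and all 22 were tested. At day 4 against day 0, 6 rose and 12 fell in KO, and 6 rose and 13 fell in WT (among all genes 40.7% rose and 43.1% fell in KO, and 40.9% and 44.6% in WT). Their median difference was -0.78 on the log2 scale in KO and -0.62 in WT, against -0.05 in KO and -0.07 in WT for all genes. Siglec15, a DAP12-linked receptor of osteoclasts, rose most, with 76.2 ± 15.2 FPKM in KO and 77.8 ± 11.3 FPKM in WT at day 4 and at most 0.263 FPKM in any day 0 sample; the difference was 6.14 in KO (adjusted p = 1.66e-16) and 6.14 in WT (adjusted p = 1.76e-16). Nfam1 rose by 1.42 in KO and 1.57 in WT, and Pira2, an FcRγ-linked receptor of the paired immunoglobulin-like group, by 1.77 in KO and 1.97 in WT. The Fc receptors were on the other side: Fcgr1 fell, with differences of -4.89 in KO and -5.18 in WT, and so did Fcgr4, with -2.48 in KO and -2.85 in WT. Trem1, whose product amplifies inflammatory signals through DAP12, fell too, with -1.81 in KO and -1.71 in WT, from a low level (3.04 ± 0.318 FPKM in KO and 2.85 ± 0.441 FPKM in WT at day 0). Pira, Sirpb1, Fcgr, Cd300 and Pilrb genes have near-identical relatives among which reads may have been split, so their values are uncertain.

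From day 3 to day 4 part of the same 22 receptors rose. In KO 7 of the 22 passed as higher and 0 as lower, against 9.69% of all genes higher, and 20 of 22 differences were above 0 with a median of 0.43. In WT 8 of the 22 passed as higher and 0 as lower, against 10.8% of all genes higher, and 22 of 22 differences were above 0 with a median of 0.42. The median over all genes was 0.002 in KO and -0.01 in WT. Clec7a, the β-glucan receptor with a hemITAM, rose by 1.55 in KO (adjusted p = 0.00013) and by 1.65 in WT (adjusted p = 5.6e-05), and Fcgr3 rose by 1.49 in KO (adjusted p = 0.000162) and by 1.52 in WT (adjusted p = 0.000116); these examples were picked after their values were seen. The count in KO was 4, 3 and 4 without KO mice 481, 528 and 532, and 12 with samples weighted by day or with the 2 groups fitted alone. Over all genes the number higher in KO was 977 in the planned fit and 369, 332 and 402 without those mice. It was 1832 with weights and 1721 with the 2 groups alone. In WT 4 receptors passed without mouse 529 and 4 without mouse 531, where 571 and 670 of all genes were higher, against 1092 with all mice. The receptor counts thus moved with the count over all genes.

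Between SYK and NFATc1, 45 of 50 listed kinases, scaffolds and effectors were in the table and 44 were tested. At day 4 against day 0, 20 rose and 19 fell in KO, and 21 rose and 20 fell in WT, where 40.7% of all genes rose and 43.1% fell in KO, and 40.9% and 44.6% in WT. The median difference of the 44 was 0.13 in KO and 0.12 in WT, against -0.05 in KO and -0.07 in WT over all genes. The Src kinase gene, which acts at the ITAM and in the osteoclast's sealing zone, rose by 6.16 in KO and 5.99 in WT, to 125 ± 6.76 FPKM in KO and 121 ± 13.4 FPKM in WT. Nfatc1 rose by 2.90 in KO and 2.94 in WT, and Rcan1, a calcineurin regulator that is itself an NFAT target, by 2.81 in KO and 2.74 in WT. On the falling side, the differences were -1.70 in KO and -2.05 in WT for Lat2, a membrane scaffold for signalling proteins, -0.80 in KO and -0.91 in WT for the adaptor Grb2, and -1.78 in KO and -1.61 in WT for the scaffold Gab3. Those 6 genes had adjusted p of at most 7.79e-10 in KO and 2.69e-10 in WT.

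The next list holds genes taken as brakes on the pathway: ITIM receptors, phosphatases and other proteins listed as opposing ITAM signals. Whether each of them acts as a brake in these cells was not tested. Of 30 listed names, 28 matched the table and 27 rows were tested, since Pirb and Lilrb3 share 1 row. At day 4 against day 0, 8 of the 27 rose and 14 fell in KO, and 8 rose and 14 fell in WT, beside 40.7% of all genes higher and 43.1% lower in KO and 40.9% and 44.6% in WT. Their median difference was -0.36 in KO and -0.52 in WT, against -0.05 in KO and -0.07 in WT over all genes. Ptpn22, a phosphatase of Src and SYK family kinases, rose by 1.88 in KO and 1.86 in WT, Ptprj by 1.49 in KO and 1.63 in WT, and the inhibitory lectin Clec4a2 by 1.29 in KO and 1.09 in WT. The falls with the smallest adjusted p in WT were those of Dok2, an inhibitory adaptor (-2.78 in KO and -2.71 in WT), of the inhibitory receptor Cd300lf (-2.58 in KO and -2.74 in WT) and of Milr1, listed as Gm885 (-3.12 in KO and -3.19 in WT). Inpp5d, the lipid phosphatase SHIP1 that opposes TREM2 and DAP12 signals, was counted among the KO rises only through 2 listed zeros: it had 63.3 FPKM in KO mouse 481 and was listed at 0 in KO mice 528 and 532 at day 0, against 67.5, 51.6 and 52.8 FPKM in WT. On all later days it lay between 43.4 and 54.5 FPKM in both genotypes.

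Of 11 listed ligands of OSCAR or TREM2 and sheddases of TREM2, 6 were in the table and 4 were tested. Apoe, a TREM2 ligand, fell, by a difference of -2.41 in KO and -2.67 in WT, at day 4 against day 0 (465 ± 46.7 FPKM in KO and 518 ± 62.4 FPKM in WT at day 4). Its day 0 values were 2503 ± 476 FPKM in KO and 3835 ± 2765 FPKM in WT, a wide spread in WT. Between these days Apoe was lower still and climbed, with 72.0 and 133 FPKM at days 2 and 3 in KO and 75.5 and 134 FPKM in WT. Lgals3, galectin-3, also reported to bind TREM2, fell as well (-1.49 in KO and -1.80 in WT) but kept 1659 ± 40.7 FPKM in KO and 1645 ± 181 FPKM in WT. The sheddase gene Adam10 rose by 0.40 in KO (adjusted p = 0.00413) and 0.51 in WT (adjusted p = 0.000492). Clu did not pass in either genotype.

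All 8 listed regulators of Oscar were tested. At day 4 against day 0, 3 rose and 5 fell in KO, and 2 rose and 5 fell in WT. Since 83.8% of all genes passed this comparison in KO and 85.4% in WT, those counts do not set the regulators apart. The course of Nfatc1 differed from that of Oscar in shape: it had 14.6, 167, 153 and 115 FPKM at days 0, 2, 3 and 4 in KO and 13.1, 157, 158 and 107 FPKM in WT, so its group means were highest at day 2 in KO and at day 3 in WT, while Oscar was highest at day 4. Nfatc1 at day 4 minus day 3 was -0.41 in KO, not past the threshold (adjusted p = 0.0581), and -0.56 in WT (adjusted p = 0.00936). PU.1 (listed as Sfpi1) rose by 0.63 in KO and 0.49 in WT at day 4 against day 0, while Tfe3 and Usf1, which read E-boxes, fell: Tfe3 differed by -0.96 in KO and -1.02 in WT, and Usf1 by -0.93 in KO and -1.16 in WT.

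KO and WT were then compared on each day. No member passed in any of these comparisons with limma: at day 0, where 0.377% of 10081 genes passed, at days 2, 3 and 4, where 0.00992% passed on each day, in the mean of days 2 to 4 (0.0496%), or in the genotype by day interaction (0.0694%). At an unadjusted p under 0.05 there was 1 member at day 0, Syk through its listed 0 (adjusted p = 0.442), and 0 in the other comparisons. The shares of all genes under that unadjusted threshold were 10.9% at day 0, 0.645%, 0.774% and 0.803% at days 2, 3 and 4, 1.92% in the mean of days 2 to 4 and 2.11% in the interaction. The fit used 1 spread per gene for all days. The median SD between mice on the log2 scale was 0.182 in KO and 0.192 in WT at day 0, and 0.0782 to 0.125 on RANKL days. For genes with that pattern, p-values come out too small at day 0 and too large later. The shares therefore do not compare the size of the genotype difference between days. The KO and WT values overlapped in 24 of 24 pairings of a gene with a day, where the groups of 5.88%, 3.91%, 7.47% and 3.98% of all genes did not overlap at days 0, 2, 3 and 4. A difference that misses the threshold does not show that the genotypes are alike. The intervals give the size that these mice leave possible under the shared spread. For genes that vary more at day 0, they are too narrow at day 0 and too wide on RANKL days.

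Averaged over days 2 to 4, KO minus WT was 0.11 for Oscar on the log2 scale (95% interval -0.09 to 0.32), -0.12 for Trem2 (-0.33 to 0.09), -0.04 for Fcer1g (-0.21 to 0.14), 0.05 for Tyrobp (-0.12 to 0.22) and -0.02 for Plcg2 (-0.17 to 0.13). For Syk it was -0.0003 (-0.14 to 0.13) with its isolated 0 as missing. At day 4 alone Oscar gave 0.06 (-0.30 to 0.42) and Trem2 -0.12 (-0.48 to 0.25). Intervals were widest for Oscar and Trem2. At day 0 the 3 genes abundant in precursors had lower means in KO than in WT, by differences of -0.28 for Trem2 (-0.65 to 0.08), -0.24 for Tyrobp (-0.53 to 0.06) and -0.23 for Fcer1g (-0.52 to 0.07), with adjusted p from 0.528 to 0.545. WT mouse 480 was the highest sample in all 3. At day 0 it also had the highest summed neutrophil markers, the highest summed mast cell and basophil markers and the highest summed FPKM of all samples (734974). The part of these cells and of the scale was not tested. Without that mouse the differences were -0.17 for Trem2, -0.03 for Tyrobp and -0.08 for Fcer1g.

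**Figure D5:**
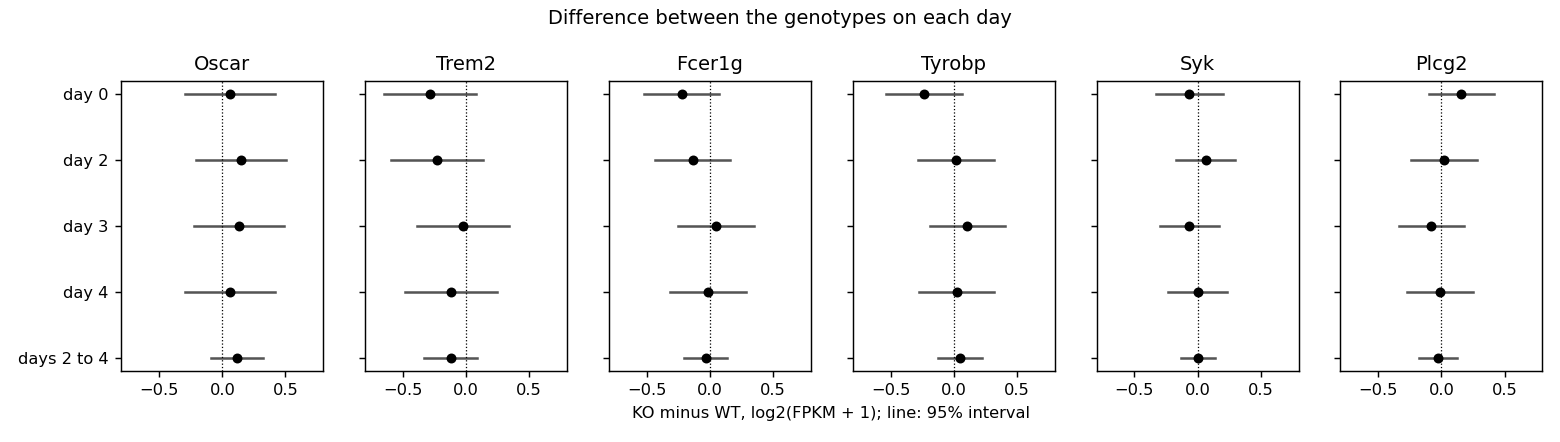
KO minus WT difference (log2(FPKM + 1) scale) of each gene on each day with 95% intervals over 3 mice per genotype. The intervals use 1 spread per gene shared by all days, and Syk is from the fit with its isolated 0 as missing. The intervals of all 6 genes include 0 on each day.

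In none of the 5 further gene lists did a gene pass a KO against WT comparison or the interaction. At an unadjusted p under 0.05, 2 of 22 receptors, 5 of 44 downstream genes and 3 of 27 inhibitory genes were reached at day 0, where 10.9% of all genes were, and at most 1 gene of any list in each other comparison. At day 4, 1 of 22 receptors had a positive difference, with a median of -0.09 against 0.01 over all genes; 0 of them had an unadjusted p under 0.05. That median was -0.24 without WT mouse 480 and -0.02 without WT mouse 531, and 14 to 20 of the 22 differences were negative without any 1 mouse. Without WT mouse 480, Fcgr3 (-0.40, adjusted p = 0.0357) and Fcgr4 (-0.39, adjusted p = 0.0292) passed as lower in KO in the mean of days 2 to 4. In that fit 71 of all genes passed, 64 of them lower in KO, against 5 with all mice. Without KO mouse 481 Inpp5d passed at day 0 and in the interaction. Its remaining KO day 0 values are both listed at 0.

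The genes with courses most like each member were found by Pearson's r of log2(FPKM + 1), given as a description, since samples share their day and mouse. Over all 24 samples and 9317 named genes, Oscar was closest to Rab38 (r = 0.998), Epn2 (0.998) and Tspan7 (0.997), and Trem2 to Alox5ap (0.997), Clec4d (0.997) and Arrb2 (0.995). Fcer1g was closest to Wash (0.994), B3gnt8 (0.994) and Mapk3 (0.993), and Tyrobp to Rnf166 (0.986), Map1lc3b (0.980) and Sdf4 (0.977). The values were lower for Syk, with Atp7a (0.910), Diap1 (0.862) and Arhgef11 (0.850) and its listed 0 included, and for Plcg2, with Fbrs (0.874), Mkl1 (0.869) and L1cam (0.868). Among the members, Fcer1g and Trem2 had the highest r (0.975), while Oscar and Trem2 had -0.918.

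Without day 0 the order changed. Over the 18 RANKL samples and 9315 named genes, Oscar was closest to Fam134b (0.996) and Aldh4a1 (0.996), Tyrobp to Blvra (0.990) and Psen2 (0.990), Trem2 to Clec4d (0.986) and Ctss (0.978), and Fcer1g to Rnf130 (0.968) and Rhog (0.964). Syk was closest to Atg2a (0.984) and Hivep2 (0.983). Plcg2 was closest to Pik3r5 (0.924) and Itpr1 (0.885), whose product is a receptor for the messenger that PLCγ2 makes. Among the members the highest r over these samples was between Oscar and Tyrobp (0.931), and that of Oscar and Trem2 was -0.163. Clec4d was near Trem2 both with and without day 0.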

How the data were processed

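Marrow cultures of 3 KO and 3 WT mice were sequenced at 4 days. Per the submitters' processing notes, the authors used the mm10 build, HISAT2 2.0.5, Cufflinks 2.2.1 and Cuffdiff and deposited FPKM per gene and sample in 1 table of 10721 genes. The selection rule for those genes, strandedness and annotation are not stated. Summed FPKM ran from 459180 to 734974 per sample. All 24 value columns matched 1 sample each and 0 were left unused. FPKM are not counts, so log2(FPKM + 1) was tested with limma 3.58.1 in R 4.3.3, with 1 mean per group of genotype and day, all 24 samples, a variance trend and 16 residual degrees of freedom. A gene was kept where any group mean reached 1 FPKM (10081 genes; all 6 members passed, Oscar only through the RANKL groups). Two-sided p-values were adjusted per comparison (Benjamini-Hochberg), with a threshold of 0.05. P-values measure the spread between mice, with 1 estimate per gene shared by all days, and treat the days of a mouse as independent samples.

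The members and gene lists were chosen with earlier results of these data known. Named from each list were the 3 rises and 3 falls with the smallest adjusted p in WT at day 4 against day 0, and any gene past a KO against WT comparison; 1 gene that this rule names is not reported here. List names were matched by symbol or RefSeq synonym. Mouse numbers pair samples of the same animal across days: deviations from group means had a median correlation of 0.261 in KO (17 of 18 pairs above 0.1) and 0.136 in WT (10 of 18). Alternatives were a pseudocount of 0.1, median scaling, no filter, a filter at 5 FPKM, fitting only the groups compared, a replicate block by mouse, weights by day, each mouse left out and, added after seeing the data, isolated zeros as missing (a value of 0 while the other 23 samples hold at least 10 FPKM). Gene positions are from GENCODE vM21 (GRCm38). Scripts were tested on simulated data.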

Additional observations from a re-analysis of the deposited data

How the results depend on the processing

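Over the members, 1259 values under the alternatives were set against the planned ones: 1214 kept their side of the threshold, 30 lost their call and 15 gained one. No called value changed direction, while 45 uncalled differences, counted within the 1214, changed sign. The replicate block by mouse changed no call of a member. The number of genes called over the whole table moved more. For KO against WT at day 0 it was 38, but 14 with a pseudocount of 0.1, 10 with weights by day, 5 with only the groups compared, and 19 to 84 with each mouse left out. At day 2 it was 1, with 4 at a pseudocount of 0.1, 3 with a filter at 5 FPKM, 2 with median scaling, 3 with weights and 1 to 3 without single mice. At day 3 it was 1, with 2 under median scaling, 2 with weights, 3 with only the groups and 1 to 2 without single mice. At day 4 it was 1, with 2 at a pseudocount of 0.1, 3 with no filter, 2 with a filter at 5 FPKM, 3 with weights and 1 to 2 without single mice. In the mean of days 2 to 4 it was 5, with 2 under the replicate block and 2 to 71 without single mice, the 71 without WT mouse 480. The interaction gave 7, with 2 at a pseudocount of 0.1, 4 with a filter at 5 FPKM, 3 with weights and 4 to 6 without single mice. Day 4 minus day 3 gave 1809 genes in KO, with 3609 under weights, 3316 with only the groups and 480 to 2307 without single mice, and 2195 in WT, with 3913 under weights and 913 to 2007 without single mice. Day 3 minus day 2 gave 3105 in KO (1506 to 3409 without single mice) and 3582 in WT (2023 to 3459). The cause of these shifts was not tested, except that leaving out a mouse tests fewer samples. Depth is unknown, so values near 0, such as Oscar at day 0, carry no counting error.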
